A study of Homo sapiens with 7 samples.

Results

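The chemokine genes described here are some of those that epidermal keratinocytes are known to use: CXCL1, CXCL2, CXCL3 and CXCL8 (listed under its older symbol IL8), CCL20, CXCL14 and CXCL16. The rule that picks them uses gene names and no measured value, though the set was proposed with earlier results of these data known, and all 7 were found among the 16686 gene symbols of the expression table. RNA-seq had been performed on N/TERT2G cells, a human keratinocyte line immortalized with telomerase. Libraries siYT A to D (n = 4) came from cells given pooled siRNAs against both YAP1 and TAZ, the product of WWTR1, and libraries siCON A to C (n = 3) from cells given a non-targeting siRNA. Both groups received 8 pmol of siRNA per cm2 with the lipid Lipofectamine RNAiMAX, were grown in the same serum-free medium and were lysed 48 h after transfection. The comparison of siYT with siCON asks which mRNAs depend on YAP1 and TAZ, a pair of co-activators of the Hippo pathway that reach DNA through the TEAD factors. A single cell line was used, and the study's statement on its cell experiments has control and treated wells plated together, with no statement on these libraries in particular, so replicates could share one plating, and a p-value here covers only sample-to-sample spread, possibly technical.

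Chemokines are small secreted proteins that steer the movement of white blood cells. CXCL1, CXCL2, CXCL3 and CXCL8 share the receptor CXCR2 and call in neutrophils, while CCL20 acts on CCR6 and calls in Langerhans cell precursors and interleukin-17-producing T cells. In keratinocytes these genes are switched on by interleukin-1, TNF and interleukin-17 through NF-kappaB and AP-1, and their mRNAs are short-lived because AU-rich elements in the 3′UTR recruit decay factors. CXCL14 stands apart from them: it is made steadily by resting epidermis and is lost from many carcinomas. CXCL16 is made as a membrane-bound protein whose chemokine domain is shed by ADAM proteases and binds CXCR6.

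The bases just before each gene are shown because they let the members be compared for the NF-kappaB, AP-1 and TEAD letters through which these genes could be reached. The 150 bases before each start site are RefSeq sequence (taken from promoters of GRCh38.p14), and the stretch was found once on its chromosome in GRCh37, the build of the expression table. They lie at chr4:74734960-74735109 (plus strand) for CXCL1, chr4:74964913-74965062 (minus strand) for CXCL2, chr4:74904407-74904556 (minus strand) for CXCL3, chr4:74606136-74606285 (plus strand) for CXCL8, chr2:228678408-228678557 (plus strand) for CCL20 and chr5:134914682-134914831 (minus strand) for CXCL14. CXCL16 had no entry among the promoters. Each is printed in the direction of the gene, with capitals for letters that match one of the motifs searched on both strands: a strict kappaB site (GGAATTTCC), a looser one (GGAANNNCC, which includes every strict match), an AP-1 site (TGANTCA) and the core of a TEAD site (GGAATG).
CXCL1: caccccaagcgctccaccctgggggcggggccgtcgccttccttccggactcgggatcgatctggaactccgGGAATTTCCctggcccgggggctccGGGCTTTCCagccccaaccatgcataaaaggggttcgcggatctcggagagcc
CXCL2: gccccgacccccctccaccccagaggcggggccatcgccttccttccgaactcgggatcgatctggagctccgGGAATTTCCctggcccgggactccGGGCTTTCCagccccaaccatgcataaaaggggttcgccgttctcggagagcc
CXCL3: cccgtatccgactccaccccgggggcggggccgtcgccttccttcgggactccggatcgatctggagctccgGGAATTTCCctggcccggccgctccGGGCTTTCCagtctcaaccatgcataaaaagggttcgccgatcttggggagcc
CXCL8: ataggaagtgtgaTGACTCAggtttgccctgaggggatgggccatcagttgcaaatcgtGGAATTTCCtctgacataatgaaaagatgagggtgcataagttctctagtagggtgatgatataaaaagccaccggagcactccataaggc
CCL20: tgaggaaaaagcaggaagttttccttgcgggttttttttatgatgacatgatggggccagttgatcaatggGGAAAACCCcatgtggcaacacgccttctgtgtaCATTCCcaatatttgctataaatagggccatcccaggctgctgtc
CXCL14: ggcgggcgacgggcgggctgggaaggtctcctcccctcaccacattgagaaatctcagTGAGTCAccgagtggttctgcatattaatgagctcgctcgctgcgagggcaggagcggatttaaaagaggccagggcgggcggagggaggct

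The strict kappaB letters were found in all 4 genes of CXCR2 ligands in the set. They began 78 bases before the start site in CXCL1 and CXCL3, 77 in CXCL2 and 91 in CXCL8. Of 27305 promoters, 0.428% held them anywhere in 250 bases and 0.26% within 150 bases. A looser match on the minus strand began 53 bases before the start of CXCL1, CXCL2 and CXCL3, and another, on the plus strand, 79 bases before that of CCL20; 11.1% of promoters held a loose match within 150 bases. AP-1 letters were present in CXCL8 and in CXCL14, as in 4.14% of promoters, and TEAD letters only in CCL20 among the 6 windows, as in 7.09% of promoters. Over these windows CXCL1 was 88.7% identical to CXCL2 and 86.0% to CXCL3, against 37.2% to CXCL8. CXCL1, CXCL2 and CXCL3 are close copies here, so their shared letters are not independent. Kappa-B forms other than the strict and the looser one were not searched, and the shares of all promoters are no test. These matches are descriptions of the letters, and no binding was measured. For CXCL2, CXCL3, CXCL8 and CXCL14 the RefSeq start site lies inside the gene span of the expression table, so part of the window, or all of it for CXCL14, falls within the gene as the table draws it.

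Values are normalized signals whose library totals come close to those of CPM, and fold changes are from limma on log2(value + 0.5), which understates the change of low genes. Each library held approximately 20700000 to 23900000 reads if its lowest value, shared by many genes, stands for a single read. A constant added before scaling would give that value too, and no library held a value of 0 for any of the 16686 symbols. With such a constant, the read numbers, multiples and counting errors given here would be off. YAP1 signal was 65.2, 64.5, 76.2 and 68.1 in siYT A to D, against 231, 258 and 243 in siCON A to C, and WWTR1 was lower by 2.59 on the log2 scale (adjusted p = 2.26e-12, limma), so both targeted mRNAs were lower in the libraries labelled siYT. Of 13072 genes with a mean of at least 1, 27.4% were called changed (adjusted p under 0.05 and a fold of at least 1.5), 14.1% higher and 13.2% lower in siYT. The 10 keratinocyte markers (KRT5, KRT14 and TP63 among them) summed to 55349.7 to 58796 in siYT and 57935 to 60755 in siCON, a sum that a few keratins dominate. Of these 10, TP63 (0.61), ITGA6 (0.63) and DSG3 (0.78) were called higher and ITGB4 (-0.84) lower. Among markers of other cells, TYR, MLANA, PTPRC, CD207 and PECAM1 were not matched in the table. The matched ones summed to 54.6 to 66.9 in siYT and 51.1 to 57.3 in siCON for leukocytes (3 of 7 markers), and to 22.5 to 33.0 in siYT and 3.17 to 4.10 in siCON for endothelium (KDR and VWF, 2 of 5). The sums were 186 to 193 in siYT and 227 to 256 in siCON for fibroblasts (5 of 7), 1.98 to 2.86 in siYT and 2.69 to 3.23 in siCON for melanocytes (2 of 7), and 0.350 to 0.549 in siYT and 0.220 to 0.405 in siCON for the sole Langerhans cell marker matched, CD74. CD68 dominates the leukocyte sum and KDR the endothelial sum. Of the matched markers of other cells, CSF1R (0.79), COL1A2 (0.69) and KDR (2.83) were called higher. COL3A1 (-1.60), which passed the minimum mean only through siCON, and DCN (-0.68) were called lower. The part of these markers in the chemokine values was not tested. Of 1195 tested genes with transcripts under 1200 bases, 34.3% were called lower and 6.19% higher in siYT, with a median log2 fold change of -0.39 against 0.00 for all genes with a known length. CXCL1, CXCL2, CXCL3 and CCL20 have transcripts under that length.

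The 7 genes did not move as a block. CXCL14 was higher in siYT, CXCL1, CXCL8, CXCL2 and CCL20 were lower, CXCL16 was not called, and CXCL3 was below the minimum mean for testing. These are all 7 members, and 6 of them were tested. Library values of the groups overlapped only for CXCL16 among the members, and 68.7% of all genes tested likewise had no overlap. These are bulk samples, so fewer cells that make a chemokine and less of its mRNA per cell cannot be told apart. CXCL8 passed the minimum mean only through its siCON values, so the number of members called lower is given as an account and not read against the background.

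**Figure D1:**
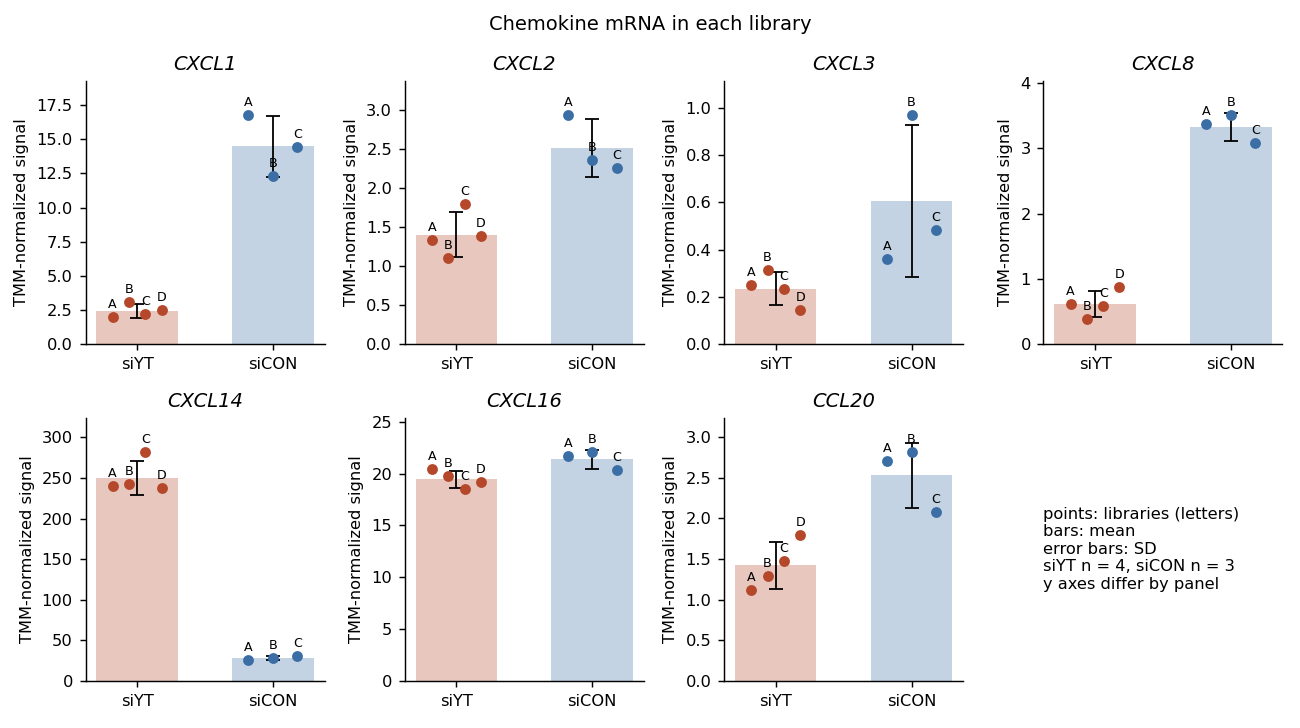
Normalized signal of the 7 chemokine genes (y axes, which differ by panel) in the 4 siYT and the 3 siCON libraries. Points are libraries with their letters, bars are means and error bars are SD; CXCL14 averaged 250.2 in siYT and 28.3 in siCON, CXCL1 averaged 2.44 in siYT and 14.5 in siCON, and only CXCL16 has overlapping groups.

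CXCL1, the growth-regulated neutrophil attractant first isolated from melanoma cells, had a signal of 1.99, 3.10, 2.18 and 2.49 in siYT A to D, against 16.8, 12.3 and 14.4 in siCON A to C. All siYT libraries lay far below the lowest siCON library. The means were 2.44 ± 0.484 in siYT (SD, n = 4) and 14.5 ± 2.22 in siCON (SD, n = 3), a log2 fold change of -2.35 ± 0.14 (SE; 95% interval -2.64 to -2.07; adjusted p = 5.27e-10, limma). By size of the downward change it ranked 57th among the genes tested, of which 0.727% were called lower by 4-fold or more. Under all 18 alternative settings the gene was still called lower, and with the trend on transcript length removed its log2 fold change was -2.07.

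CXCL8 (interleukin-8), the main neutrophil attractant of human skin, had a signal of 0.623, 0.392, 0.584 and 0.877 in siYT A to D, against 3.38, 3.50 and 3.09 in siCON A to C. Its 3 siCON values lay close together and its siYT values were all under 1. In units of each library's lowest value, which may stand for a single read, these were 15, 10, 15 and 24 in siYT and 75, 76 and 70 in siCON, so counting alone would give an error of 20.4% to 31.6% in siYT. The log2 fold change was -1.79 ± 0.16 (SE; 95% interval -2.14 to -1.44; adjusted p = 1.14e-07, limma). The ratio of the plain means was larger, 5.37-fold lower in siYT, since a constant of 0.5 is close to the siYT values. The fitted value was -2.29 with a constant of 0.1 and -1.03 with a constant of 2, and the gene was called lower under both.

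CXCL2, a close paralog of CXCL1, had a signal of 1.33, 1.10, 1.79 and 1.39 in siYT A to D, against 2.93, 2.35 and 2.25 in siCON A to C. The groups did not overlap, but the gap between the highest siYT and the lowest siCON library was narrow. The means were 1.40 ± 0.288 in siYT (SD, n = 4) and 2.51 ± 0.366 in siCON (SD, n = 3), a log2 fold change of -0.67 ± 0.16 (SE; adjusted p = 0.00124, limma), just past the 1.5-fold limit. With the trend on transcript length removed the change was -0.37 (adjusted p = 0.0477), and it also dropped under the limit with equal library totals (-0.58), with a constant of 2 (-0.41) and without siCON A (-0.57).

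CXCL3, the third of these paralogs, was the least abundant member. Its signal was 0.249, 0.314, 0.233 and 0.146 in siYT A to D, against 0.360, 0.968 and 0.485 in siCON A to C. The siYT values were all below the siCON values, and siCON B was well above its replicates. These correspond to 4 to 8 multiples of the lowest value in siYT and 8 to 21 in siCON, and the gene was not tested. The means were 0.236 ± 0.0690 in siYT (SD, n = 4) and 0.605 ± 0.321 in siCON (SD, n = 3). On the log2(value + 0.5) scale they differ by -0.55, or by -0.33 without siCON B. CXCL1, CXCL2 and CXCL3 are near-identical over much of their coding sequence. Reads shared between them could have been divided or lost in the authors' counting, which makes their values uncertain and was not tested. Members other than CXCL14 had whole multiples of the lowest value (within 0.05) in all 7 libraries, and CXCL14 had them in 3.

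CCL20, the only CC chemokine of the set, had a signal of 1.12, 1.29, 1.48 and 1.79 in siYT A to D, against 2.70, 2.81 and 2.07 in siCON A to C. The groups did not overlap. The means were 1.42 ± 0.287 in siYT (SD, n = 4) and 2.53 ± 0.400 in siCON (SD, n = 3), and the log2 fold change was -0.66 ± 0.16 (SE; adjusted p = 0.0015, limma). It has the shortest transcript of the set, 834 bases, and with the trend on transcript length removed the change was -0.28 (adjusted p = 0.136). It also dropped under the 1.5-fold limit with equal library totals (-0.57), with a constant of 2 (-0.40) and without siYT A (-0.58).

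CXCL14 moved the other way. This gene, whose product is abundant in normal epidermis, had a signal of 239.8, 242, 282 and 237 in siYT A to D, against 25.8, 28.3 and 30.8 in siCON A to C. The lowest siYT library was several times the highest siCON library, and siYT C stood above the other siYT libraries. The means were 250.2 ± 21.2 in siYT (SD, n = 4) and 28.3 ± 2.46 in siCON (SD, n = 3), a log2 fold change of 3.12 ± 0.07 (SE; 95% interval 2.97 to 3.27; adjusted p = 2.23e-14, limma). CXCL14 ranked 10th among all genes tested by upward fold change, and 0.0918% of them were called higher by 8-fold or more. Counting error was at most 4.17% in any library, and the log2 fold change stayed between 3.06 and 3.30 under all 18 alternatives.

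CXCL16, the shed ligand of CXCR6, had a signal of 20.4, 19.8, 18.5 and 19.2 in siYT A to D, against 21.7, 22.1 and 20.4 in siCON A to C. The highest siYT library and the lowest siCON library overlapped. The log2 fold change was -0.13, with a 95% interval of -0.28 to 0.01 (adjusted p = 0.0856, limma), which leaves out a drop of more than 1.21-fold. It was not called under any of the 18 alternatives.

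**Figure D2:**
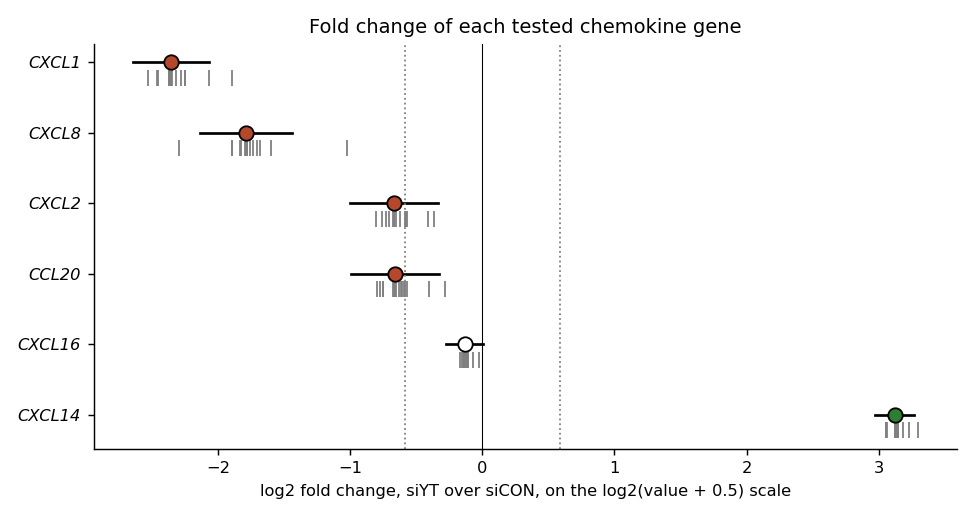
Log2 fold change of the 6 tested chemokine genes, siYT over siCON, on the log2(value + 0.5) scale (x axis). Circles are the fitted values, filled where called, bars their 95% intervals, ticks below each bar the values under the alternative settings and dotted lines the 1.5-fold limit; CXCL14 lies at 3.12, CXCL1 at -2.35 and CXCL8 at -1.79, and the ticks of CXCL2 and CCL20 cross the limit.

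The genes of the 4 CXCR2 ligands of the set were also compared with each other within each library. CXCL5, CXCL6 and PPBP, other ligands of this receptor, were not matched in the table, so every sum here leaves them out. Their summed signal was 4.19, 4.90, 4.79 and 4.90 in siYT A to D, against 23.4, 19.14 and 20.2 in siCON A to C, with means of 4.69 ± 0.339 in siYT (SD, n = 4) and 20.9 ± 2.22 in siCON (SD, n = 3). The siYT libraries were all far below the siCON libraries. Per kilobase of transcript, CXCL1 made up 52.6% ± 7.74 of the sum in siYT and 71.6% ± 3.94 in siCON, and CXCL2 made up 32.1% ± 6.71 in siYT and 13.1% ± 0.824 in siCON.

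Ratios were taken of value + 0.5, so for genes this low they depend on the constant. The log2 ratio of CXCL1 to CXCL2 was 0.63 ± 0.40 in siYT (SD, n = 4) and 2.31 ± 0.14 in siCON (SD, n = 3), without overlap. The difference was -1.69 (exact permutation test, two-sided, p = 0.0571, adjusted p = 0.0857 over 6 pairs), and 0.0571 is the smallest p that 4 against 3 libraries allow. The ratios of CXCL1 to CXCL3 (difference -1.80), CXCL2 to CXCL8 (1.12) and CXCL3 to CXCL8 (1.24) also had groups that did not overlap, at the same p by the exact permutation test. With a constant of 2 the last pair of differences were 0.62 and 0.81, and with a constant of 0.1 CXCL3 to CXCL8 gave p = 0.114 (exact permutation test). CXCL1 to CXCL8 differed by -0.57 with overlapping groups (exact permutation test, p = 0.114), and by -0.24 with a constant of 0.1 (p = 0.571) and -0.87 with a constant of 2 (p = 0.0571). CXCL2 to CXCL3 differed by -0.11 (exact permutation test, p = 0.80), a difference whose sign turned with a constant of 0.1 and without siYT B or siCON A. The ratios of CXCL1 and CXCL8 to CXCL2 were thus lower in siYT, and no pair of genes could pass an adjusted p of 0.05 in this design.

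**Figure D3:**
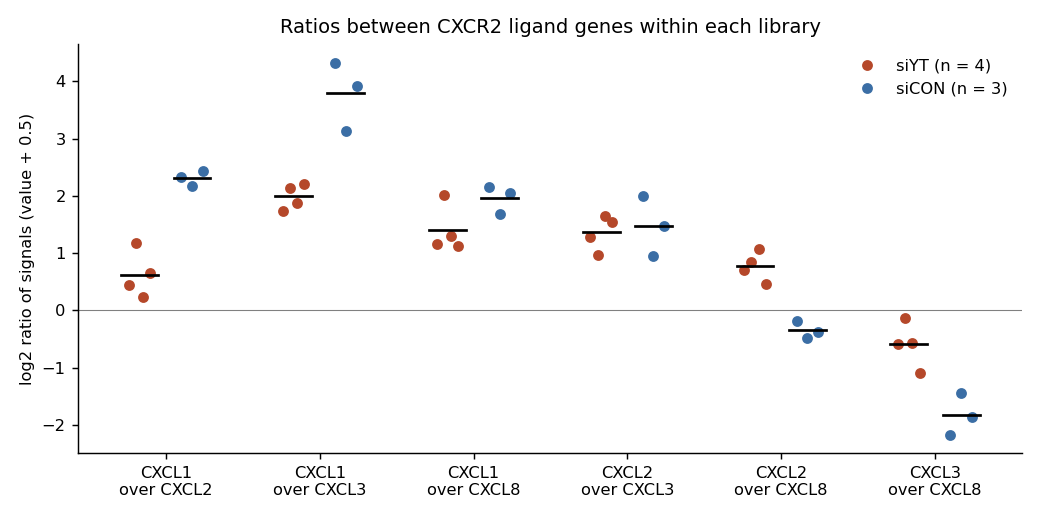
Log2 ratio of signals (value + 0.5; y axis) for the 6 pairs of CXCR2 ligand genes (x axis), with a point per library and a line at each mean, siYT left of siCON in each pair. CXCL1 over CXCL2 averaged 0.63 in siYT and 2.31 in siCON, CXCL2 over CXCL8 averaged 0.77 in siYT and -0.35 in siCON, and CXCL2 over CXCL3 overlaps.

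Levels of different genes can be compared only per length, and per kilobase of transcript the order of the 7 genes differed between the groups. In siYT it ran from CXCL14 (148 signal units per kb) over CXCL16 (8.38), CXCL1 (2.08), CCL20 (1.70), CXCL2 (1.26) and CXCL8 (0.377) to CXCL3 (0.219). In siCON it ran from CXCL14 (16.8) over CXCL1 (12.3), CXCL16 (9.21), CCL20 (3.03), CXCL2 (2.25) and CXCL8 (2.02) to CXCL3 (0.562). Neighbours whose library values overlapped were CXCL1 and CCL20, CCL20 and CXCL2, and CXCL8 and CXCL3 in siYT, and CCL20 and CXCL2, and CXCL2 and CXCL8 in siCON. CXCL14 per kb was 37.9 ± 3.67 times the summed CXCR2 ligands in siYT (SD, n = 4) and 0.988 ± 0.168 times in siCON (SD, n = 3). On that scale the epidermal chemokine and these 4 neutrophil attractants were about equal in control cells and far apart after depletion of YAP1 and TAZ.

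The mRNAs also differ in the AUUUA pentamers of their 3′UTRs, the letters at the heart of AU-rich elements. CXCL2 holds 10 (13.97 per kb), CXCL3 holds 7 (10.4), CXCL1 holds 6 (7.77), CXCL8 holds 9 (7.19) and CCL20 holds 3 (6.34), all above the median of 1.51 per kb over 19381 transcripts. CXCL14 and CXCL16 hold 1 each, at 0.852 and 1.03 per kb. At least as high a density occurs in 0.562% of transcripts for CXCL2 and in 5.01% for CCL20, and in 60.6% for CXCL14. In order of falling density, the log2 fold change was -0.67 for CXCL2, -0.55 for CXCL3 (no test), -2.35 for CXCL1 and -1.79 for CXCL8. It was -0.66 for CCL20, -0.13 for CXCL16 and 3.12 for CXCL14, and a link of density with change was not tested. Of 9 genes for decay and stability factors of such mRNAs, 1 was called higher and 0 lower in siYT (14.1% and 13.2% of all genes tested). Their median log2 fold change was 0.21 (0.33 with equal library totals). ZC3H12C, a ribonuclease of the regnase family, averaged 101 ± 6.34 in siYT and 61.5 ± 2.57 in siCON (log2 fold change 0.70, adjusted p = 2.68e-08, limma). It was not called with the trend on transcript length removed (0.50). ZFP36L2 and ZFP36L1, which bind AU-rich elements, had log2 fold changes of -0.01 and 0.26.

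The genes of these 4 CXCR2 ligands lie in one cluster on the long arm of chromosome 4 (GRCh37). From CXCL8 to CXCL2 they span 358.8 kb in the expression table, where CXCL5, CXCL6 and PPBP were not matched. CXCL8 is at chr4:74606223-74609433 and CXCL1 at chr4:74735110-74736959, both on the plus strand, followed by CXCL3 at chr4:74902306-74904524 and CXCL2 at chr4:74962752-74965010 on the minus strand. CXCL14 is at chr5:134906373-134914969 on the minus strand, CXCL16 at chr17:4636821-4643217 on the minus strand and CCL20 at chr2:228678558-228682272 on the plus strand. Each annotated transcript has 4 exons, except that of CXCL16, which has 6.

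Neighbours of the cluster were examined for their position alone, within 1 Mb of it. Of 9 other genes in the table, 7 were tested, and 3 were called lower and 0 higher in siYT, while 13.2% of all genes tested were called lower. MTHFD2L, a mitochondrial folate enzyme whose gene begins just beyond CXCL2, had a signal of 5.23, 5.65, 5.45 and 6.0 in siYT A to D, against 21.4, 22.6 and 22.7 in siCON A to C. Its groups were far apart, with a log2 fold change of -1.91 (adjusted p = 1.90e-11, limma). EREG and AREG, which encode the EGF receptor ligands epiregulin and amphiregulin, had log2 fold changes of -0.78 and -1.16, and AREG has a near-identical copy, AREGB, in the table, so its reads may have been divided. EPGN (-0.58), RASSF6 (-0.42), COX18 (-0.22) and ANKRD17 (0.09) were not called. EPGN lay just under the 1.5-fold limit (adjusted p = 0.000248, limma), stayed uncalled under 13 of 18 alternatives and was called lower under the others. The log2 changes along the cluster were uneven, with CXCL3 (-0.55, no test) and CXCL2 (-0.67) between CXCL1 (-2.35) and MTHFD2L (-1.91). The constant of 0.5 understates the change of genes as low as CXCL2 and CXCL3. A shared cause along the cluster was not tested.

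**Figure D4:**
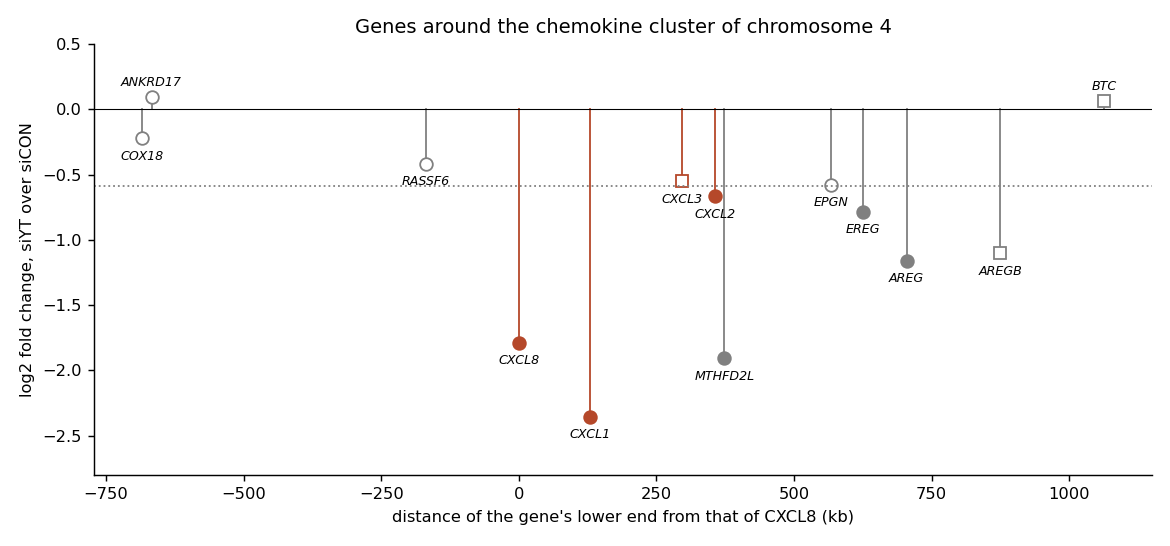
Log2 fold change, siYT over siCON (y axis), of genes around the chemokine cluster of chromosome 4 by distance from the lower end of CXCL8 in kb (x axis). Red marks chemokines and grey the other genes. Filled circles were called, open circles were not, squares were not tested and the dotted line is the 1.5-fold limit. CXCL3 at -0.55 and CXCL2 at -0.67 lie between CXCL1 at -2.35 and MTHFD2L at -1.91.

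Genes that act before and after these chemokines were read from lists chosen by function. The list of cytokines and receptors that induce them, which also holds the antagonists IL1RN and IL36RN, had 19 of 25 genes in the table. Of 18 tested, 7 were called lower and 6, IL1RN among them, higher in siYT. Of all genes tested, 13.2% were called lower and 14.1% higher. The median log2 fold change was -0.17 against 0.00 over all genes tested, and it was -0.07 with equal library totals and 0.04 with a minimum mean of 5. The lower ones included the interleukin-1 agonists. IL1B had a signal of 2.12, 2.12, 2.80 and 1.499 in siYT A to D, against 27.8, 24.7 and 23.9 in siCON A to C, a log2 fold change of -3.32 (adjusted p = 1.36e-11, limma). This fitted change was larger in size than that of any CXCR2 ligand, and the difference was not tested. IL1A averaged 19.8 ± 2.38 in siYT and 80.7 ± 3.87 in siCON (log2 fold change -2.0, adjusted p = 1.06e-11, limma), and IL18 averaged 46.2 ± 1.42 in siYT and 112 ± 5.17 in siCON (-1.26).

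TNF averaged 4.18 ± 0.178 in siYT and 6.97 ± 0.374 in siCON (-0.67), and IL36G, IL1RAP and the oncostatin M receptor OSMR were also called lower (-0.70, -0.76 and -1.12). With the trend on transcript length removed TNF (-0.50) and IL36G (-0.42) were not called. IL1RN, the natural antagonist of the interleukin-1 receptor, rose by 0.85. IL17RE, a subunit of the receptor for interleukin-17C, averaged 86.8 ± 1.21 in siYT and 33.6 ± 2.04 in siCON (1.36, adjusted p = 9.04e-12, limma). TLR3 was called higher as well (0.94), as were IL17RC, TLR2 and TLR5 (0.59, 0.60 and 0.71; TLR5 passed the minimum mean only through siYT and its groups overlap), while the signalling receptors IL1R1 (0.19) and TNFRSF1A (-0.12) were not called. The calls of IL17RC (0.56 without siYT A, 0.56 without siCON B or C), TLR2 (0.54 without siYT D or siCON A) and TLR5 (0.53 without siCON A) were lost when those single libraries were left out.

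Of 15 signal adaptors and kinases, 2 were called lower and 2 higher (13.2% and 14.1% of all genes tested), and 11 were not called. Their median log2 fold change was -0.01 (0.09 with equal library totals, 0.06 without siCON A). MYD88, the adaptor of interleukin-1 receptors and Toll-like receptors, averaged 73.4 ± 6.81 in siYT and 113 ± 6.97 in siCON (-0.62), and TRAF3IP2, the adaptor of interleukin-17 receptors, averaged 59.2 ± 3.20 in siYT and 90.8 ± 2.73 in siCON (-0.61). Both are just past the limit, and neither was called with equal library totals (MYD88 -0.51, TRAF3IP2 -0.50). MYD88 also lost its call without siYT D (-0.58) or siCON A (-0.58). IRAK2, a kinase of the same pathway, rose by 0.97 and TAB2 by 0.69. Of 14 NF-kappaB subunits and inhibitors, 3 were called higher and 0 lower (14.1% and 13.2% of all genes tested). The median of this list was 0.11 (0.22 with equal library totals). Those called higher were the subunit REL (0.95), the ubiquitin ligase BIRC3 (0.83) and the deubiquitinase CYLD, a brake on the pathway (0.96).

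Among 14 genes that shed, clip or present chemokines, all in the table and 13 tested, 5 were called higher in siYT and 0 lower (14.1% and 13.2% of all genes tested), with a median log2 fold change of 0.54. MMP13, a collagenase, averaged 36.7 ± 3.20 in siYT and 3.23 ± 0.649 in siCON (3.33, adjusted p = 9.70e-13, limma), and MMP9, which trims the amino end of CXCL8, averaged 172 ± 19.13 in siYT and 46.8 ± 8.92 in siCON (1.88). DPP4 (1.61) and ANPEP (1.44), peptidases of the cell surface that cut chemokines, rose as well. With equal library totals 8 genes of this list were called higher.

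Of 38 other chemokine ligands, 8 were in the table and 5 were tested. Of these 5, 1 was called higher and 0 lower (14.1% and 13.2% of all genes tested), with a median of 0.38. That median depended on the filter, at 0.02 over all 8 unfiltered genes and -0.30 where a mean of 5 was required, and it was 0.23 without siYT A and 0.24 without siCON C. CXCL11, an interferon-induced ligand of CXCR3, had a signal of 3.98, 5.18, 2.80 and 3.03 in siYT A to D, against 1.89, 1.43 and 1.06 in siCON A to C (log2 fold change 1.10, adjusted p = 8.46e-05, limma). All siYT values were above the siCON values. CXCL10, of the same receptor, averaged 6.05 ± 1.10 in siYT and 4.24 ± 2.13 in siCON (0.54), with overlapping groups. It was not called, and 6 of 18 alternatives did call it, those without siYT D (0.64) or siCON A (0.88) among them. CCL5 (0.38), CCL28 (-0.31) and CKLF (-0.30) were not called, and CCL27, CXCL17 and CX3CL1 were below the minimum mean. Of 23 chemokine receptors, 5 were in the table, and the 2 tested, the scavengers ACKR3 (0.46) and ACKR2 (0.37), were not called. CXCR2 itself was near the floor of the table, with 0.267 ± 0.136 in siYT and 0.210 ± 0.0267 in siCON.

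**Figure D5:**
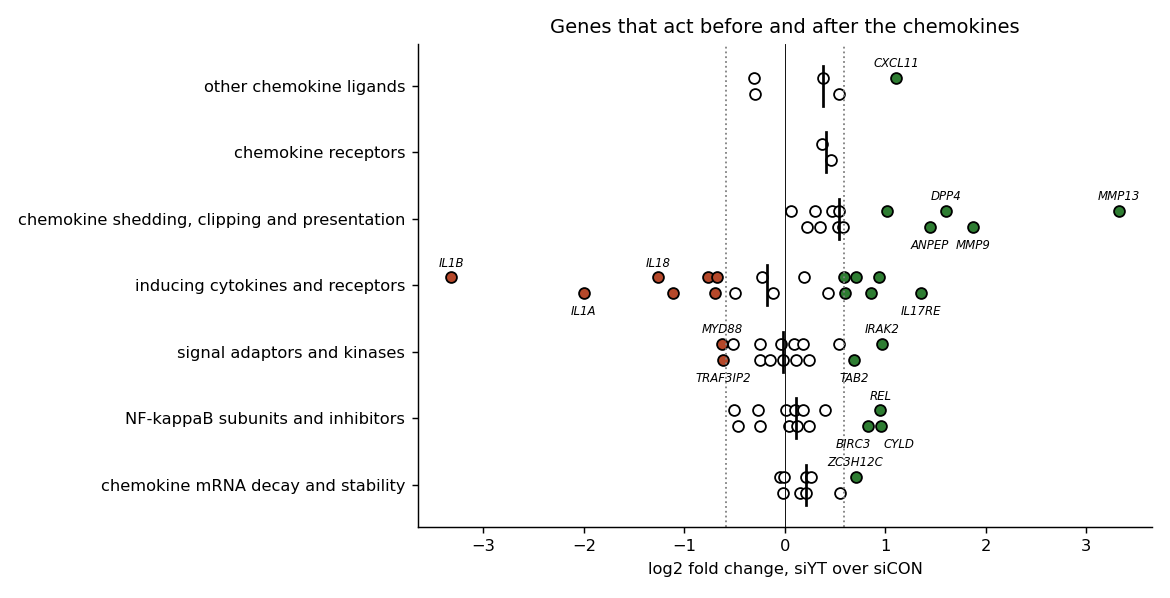
Log2 fold change, siYT over siCON (x axis), of the tested genes in 7 lists around the chemokines (y axis). Red points were called lower, green points higher and open points not called, black bars are list medians and dotted lines the 1.5-fold limit. IL1B lies at -3.32 and MMP13 at 3.33. Of 14 genes in the NF-kappaB list, 3 were called higher, against 14.1% of all genes tested.

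The genes whose log2 profile over the 7 libraries was most like the mean of CXCL1, CXCL2 and CXCL8, among 10767 genes with a mean of at least 5, were MYO1C (Pearson r = 0.9996), TMEM120A (0.9993) and ZFP42 (0.9989). For CXCL14 they were ATF6B (0.9993), CASC3 (0.9992) and PARD6G (0.9992), and for CCL20 they were TMEM251 (0.993), EIF1 (0.982) and CLASP1 (0.982). With 2 groups so far apart these correlations mostly carry the difference between siYT and siCON, which all 7 libraries share, and they are given as a description. MYO1C, for example, averaged 137 ± 3.73 in siYT and 210.4 ± 7.76 in siCON.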

How the data were processed

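Polyadenylated RNA of 7 libraries was sequenced. The processing notes name cutadapt 1.18, STAR 2.6.1, Partek 8.0.19.0819 and hg19 (GRCh37); the methods of the study give a different trimmer and an older version of Partek. The deposited values are a normalized signal per gene: the authors removed genes with few reads and applied TMM scaling (trimmed mean of M values). Library totals were 866098 to 955106, and the lowest value of each library, 0.0366 to 0.0461, was shared by 140 to 216 genes. Of all values, 83.5% lay within 0.05 of a whole multiple of it, too few to recover reads, so no count model was used. A second deposited file holds the authors' own comparison (p-values, false discovery rates, ratios and fold changes) and was not used. Strand use in counting was not stated, so overlapping antisense genes cannot be told apart.

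Of 18478 entries, 1792 repeats were dropped. Genes with a mean of at least 1 were tested on log2(value + 0.5) with limma 3.58.1 (R 4.3.3, mean-variance trend), Benjamini-Hochberg adjusted over all genes, and called at an adjusted p under 0.05 and 1.5-fold. The code was tested on simulated data. The members and lists were chosen with earlier results of these data known. Named genes were the members, the targeted genes, up to 4 called genes per list with the largest change (mean of at least 2), or the 2 most abundant, other tested chemokines and receptors, and the 3 nearest profiles. Cluster neighbours were named by position, and TNF, IL36G, IL1RAP, OSMR, IL1RN, IL17RC, TLR2, TLR3, TLR5, IL1R1, TNFRSF1A and CXCR2 after their values were seen. Transcript lengths and 3′UTRs are from GENCODE on GRCh37. The constant, filter, scaling, length trend, block, trend of the variance and each library were varied, and siYT A and B were also averaged. Those libraries were the most alike within a group, with an SD of log2 differences of 0.108. Other pairs of the same group had 0.142 to 0.170. With siYT A and B averaged, 4 members were called lower and 1 higher. Subtraction of each library's lowest value was added after seeing the data.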

Additional observations from a re-analysis of the deposited data

Results flagged for a closer look

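In 4 of 41 sets of 4 siYT values examined, 1 library stood apart, by the gap to its nearest neighbour over the whole range. Chance alone gives about 1 in 20. CXCL14 was 282 in siYT C, above the other siYT libraries (gap 0.892 of the range). The summed CXCR2 ligands were 4.19 in siYT A, below the others (0.836). IRAK2 was 57.0 in siYT D, above the others (0.971), and CYLD was 52.6 in siYT C, below the others (0.864). In each case all siYT values stayed on the same side of all siCON values.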

How the results depend on the processing

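Under 18 alternatives CXCL1 kept its call (-2.53 to -1.89 on the log2 scale) and so did CXCL14 (3.06 to 3.30), and CXCL16 stayed uncalled (-0.17 to -0.02). CXCL8 kept its call under the 17 that tested it (-2.29 to -1.03). CXCL2 and CCL20 lost theirs with a constant of 2 (-0.41 and -0.40), equal library totals (-0.58 and -0.57) and the trend on transcript length removed (-0.37 and -0.28), and the cause was not tested. Leaving out single libraries gave -0.76 to -0.57 for CXCL2, which lost its call without siCON A, and -0.77 to -0.58 for CCL20, which lost its call without siYT A. CXCL3 moved to -1.0 with a constant of 0.1 and -0.21 with a constant of 2, against -0.55, and ranged over -0.71 to -0.33 without single libraries, the smallest without siCON B, and with no filter its adjusted p was 0.0126 (limma), under the 1.5-fold limit. The log2 ratio of CXCL2 to CXCL3 (-0.11) turned to 0.19 with a constant of 0.1, and leaving out single libraries gave -0.37 to 0.14, with 0.015 without siYT B and 0.14 without siCON A. Equal totals shifted the median of all genes by 0.11 and made 64.7% of calls higher, against 51.6%.

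With the letter as a replicate block, which sets siYT D aside, 3528 genes were called, against 3579. The members gave -2.37 for CXCL1, -0.67 for CXCL2, -1.89 for CXCL8, -0.75 for CCL20, -0.13 for CXCL16 and 3.15 for CXCL14, and no member's call changed. Same-letter deviations correlated at 0.156, 0.0254 and 0.183 for A, B and C, and those of unlike letters at -0.213 to 0.176. These few values cannot settle whether the letters mark pairs. No label states a shared plating, so the letters were not read as pairs. Other chemokine ligands called higher numbered 1, against 2 with a constant of 0.1, equal totals or the block, 3 with the length trend removed, 0 with a minimum mean of 5 and 1 to 2 without single libraries, and with no filter 1 was called lower. Signal adaptors called lower numbered 2, against 0 with equal totals, 1 with the block and 1 to 2 without single libraries. Shedding genes called higher numbered 8 with equal totals, decay genes 2 with equal totals and 0 with the length trend removed, and inducing cytokines and receptors 3 with a constant of 2. Depth limits CXCL3 and CXCL8 most, with 4 to 8 and 10 to 24 multiples of the lowest value in siYT; intervals from such multiples cover counting error only.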
